A study of Mus musculus with 15 samples.

Results

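The genes described here prepare peptides for MHC class I molecules or regulate the genes that do so. They were chosen by name as Irf1, Nlrc5, Tap1, Tap2, Tapbp, Psmb8, Psmb9, Psmb10, Psme1 and Psme2. These are 10 of the 14822 genes tested, and 22180 genes had a probe set listing their symbol alone. All 10 members had such a probe set, and all 10 lay above the filter on low signals on all 15 arrays. Their lowest value, 6.23 log2 for Nlrc5, stood above the filter values of 5.34 to 5.58 log2, so no member entered the fit through a single group.

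Expression was measured on 15 single-colour Affymetrix arrays of mouse myeloid cells, 3 arrays in each of 5 groups, with the strain given as C57Bl/6 throughout. The GFW and RB arrays carry the same description and differ in their title codes. Both hold spleen cells of mice treated with G-CSF, a growth factor that mobilises myeloid and progenitor cells, sorted as CD11b+CD34+ after removal of CD4, CD8, Ly6G, B220 and Ter119 positive cells. The GFK arrays hold the same sort from G-CSF treated mice labelled iNOS knockout, which by that label lack the inducible nitric oxide synthase. The GFE arrays hold sorted cells of G-CSF treated C57Bl/6 mice kept for 3 days in Stemspan medium with Flt3 ligand and SCF, cytokines that sustain progenitors. The MDSC arrays hold Ly6C+CD11b+ suppressor cells grown from bone marrow with G-CSF, GM-CSF and IL-13, so they differ from the others in tissue, culture and sort. G-CSF is thus common to all 5 groups, given to the mice or added to the culture. Whether the arrays of a group come from separate mice or cultures is not said in the labels, so the p-values below cover the spread among these samples only, and that spread may be technical.

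Class I molecules show fragments of proteins made inside the cell to CD8 T cells. The proteasome cuts these proteins, and under interferon-gamma its constitutive catalytic subunits are exchanged for inducible ones encoded by Psmb8, Psmb9 and Psmb10, which form the immunoproteasome, while Psme1 and Psme2 encode the PA28 cap that opens it. The transporter formed by Tap1 and Tap2 carries the fragments into the endoplasmic reticulum, where tapasin (Tapbp) helps to load them onto class I molecules. Irf1 is a transcription factor induced by interferon-gamma, and Nlrc5 is the co-activator of class I genes; both are known to drive genes of this group.

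The promoter sequences of the members were searched because interferon reaches these genes through short elements near their start sites. RefSeq promoter windows of GRCm38.p6, running from 250 bases before the start and 300 bases long, were at hand for 8 of the 10 members, and not for Tap2 and Nlrc5. The letters GAAANNGAA, a form of the element bound by interferon regulatory factors, were searched on both strands. They were found in 1 of the 8 members, or 1 of their 10 windows (10%), beside 8.56% of all 32851 windows. That match lay in Psme1, as TTCGCTTTC at bases 11 to 19 after the start. Psmb9 and Tap1 are neighbours on chromosome 17 that are transcribed away from each other, and the 225 bases between their starts (chr17:34187331-34187555, plus strand) hold no match and so no capitals. They are shown because a subunit and a transporter gene of the group share this stretch as the upstream region of both.
Psmb9 to Tap1: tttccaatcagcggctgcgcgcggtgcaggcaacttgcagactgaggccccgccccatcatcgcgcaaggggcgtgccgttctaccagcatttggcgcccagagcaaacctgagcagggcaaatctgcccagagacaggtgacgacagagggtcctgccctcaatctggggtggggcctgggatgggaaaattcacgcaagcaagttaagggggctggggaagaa

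A few facts of the whole series bear on these genes. Median signals per array ranged from 5.52 to 5.72 log2. The signal of Nos2, the gene of the inducible nitric oxide synthase, stood at 8.89 ± 0.05 log2 (SD, n = 3) on the GFK arrays and 8.28 ± 0.17 on the GFW arrays. It was thus not lower on the arrays labelled knockout. Which part of the transcript its probes read is not known here, so this signal cannot check the label. Ly6g, whose product the sort was to remove, stood at 12.19 ± 0.03 on the GFW and 12.08 ± 0.05 on the GFK arrays against 4.22 to 6.28 as means of the other groups, so the GFW and GFK samples held neutrophil transcripts. Cd34 stood at 11.28 ± 0.03 on the GFE arrays and at 5.92 ± 0.11 on the RB arrays, there only the 55.7th percentile of probe sets. Itgam, which encodes CD11b, stood at 7.94 ± 0.11 on the GFE arrays against 10.32 to 11.72 as means of the other groups. In these bulk samples, fewer cells of a type and less RNA per cell cannot be told apart.

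**Figure D1:**
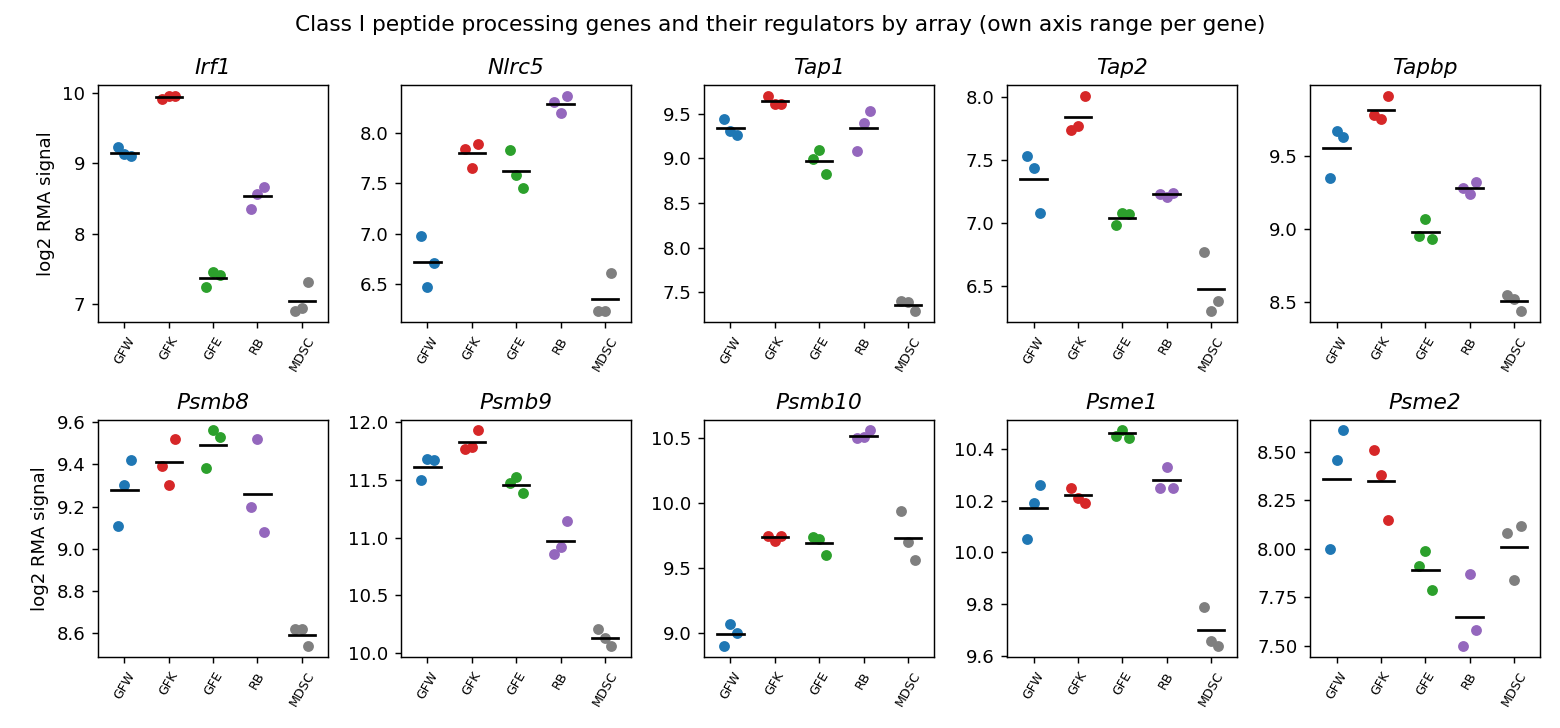
Each panel plots the log2 RMA signal of a gene on its own axis range, with a point for each of the 3 arrays of a group and a line at their mean. The MDSC arrays lie below all others for Tap1, Tap2, Tapbp, Psmb8, Psmb9 and Psme1, Irf1 steps down from GFK to GFW, RB and GFE, and Psmb10 and Nlrc5 are highest on the RB arrays.

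Irf1, the transcription factor of the group (chromosome 11), was highest on the GFK arrays, which are labelled iNOS knockout, at 9.91, 9.95 and 9.96 log2. The GFW arrays had 9.23, 9.13 and 9.10, the RB arrays 8.35, 8.57 and 8.66. After culture with Flt3 ligand and SCF the signal was 7.24, 7.45 and 7.42, and on the MDSC arrays 6.90, 6.94 and 7.32. The GFK, GFW, RB and GFE arrays formed 4 separate bands, and only the GFE and MDSC arrays overlapped. The step from GFK down to GFW was 0.79 log2 (SE 0.12, limma adjusted p = 0.00281, a 1.73-fold difference). The step from GFW to RB was 0.63 (adjusted p = 0.00056), although both carry the same description. From RB to GFE it was 1.16 (adjusted p = 7.17e-07), in a pair of groups in which 54.1% of all tested genes were called, a call being an adjusted p under 0.05. These 3 steps were larger than the spread between arrays. The step from GFE to MDSC was 0.31 and was not called (adjusted p = 0.059), and without MDSC replicate 3, the highest of its group, it was 0.45 (adjusted p = 0.00875). Across the series the GFK mean of Irf1 stood 2.89 log2 above the MDSC mean.

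Nlrc5, the class I co-activator (chromosome 8), followed another order. Its signal was 8.31, 8.20 and 8.37 log2 on the RB arrays, 7.84, 7.65 and 7.89 on the GFK arrays and 7.83, 7.58 and 7.45 on the GFE arrays. It was 6.98, 6.47 and 6.71 on the GFW arrays and 6.23, 6.23 and 6.61 on the MDSC arrays. The RB arrays lay above all others, the GFK and GFE arrays overlapped each other, and so did the GFW and MDSC arrays. The step from RB to GFK was 0.50 (SE 0.15, adjusted p = 0.0108), in a pair of groups with 50.5% of genes called. From GFK to GFE it was 0.17 and not called (adjusted p = 0.303), where 65.8% of genes were called, and from GFE to GFW it was 0.90 (SE 0.15, adjusted p = 5.54e-05). GFK and GFE could therefore not be told apart, and both stood clear of GFW. The last step, GFW to MDSC, was 0.36 with an adjusted p of 0.0424. This call was lost without MDSC replicate 1 (0.14) or 2 (0.136), without GFW replicate 1 (0.197) or 3 (0.0765), without the filter (0.056), with only the 6 arrays compared (0.0703) and with each array centred on its median (0.198). Against GFW, the GFE and RB groups each had lower Irf1 and higher Nlrc5.

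Tap1 and Tap2, the 2 subunits of the peptide transporter, are separated on chromosome 17 by Psmb8. Tap1 was 9.70, 9.61 and 9.61 log2 on the GFK arrays, 9.44, 9.31 and 9.26 on the GFW arrays and 9.08, 9.40 and 9.53 on the RB arrays. It was 8.99, 9.09 and 8.82 on the GFE arrays and 7.40, 7.39 and 7.29 on the MDSC arrays. The MDSC arrays stood far below every other array, and the RB arrays spanned the range of the GFW arrays. MDSC differed from GFE, the next group up, by 1.61 log2 (SE 0.12, adjusted p = 2.13e-08), a 3.05-fold difference, and from GFW by 1.98 (adjusted p = 9.00e-10). The steps from GFK to GFW (0.30, adjusted p = 0.294) and from GFW to RB (0.00, adjusted p = 0.982) were not called, and that from RB to GFE was (0.37, adjusted p = 0.0153).

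Tap2 ranked the groups in the same order with smaller steps. Its signal was 7.74, 7.77 and 8.01 log2 on the GFK arrays, 7.53, 7.44 and 7.08 on the GFW arrays and 7.23, 7.21 and 7.24 on the RB arrays. It was 6.98, 7.08 and 7.07 on the GFE arrays and 6.77, 6.30 and 6.38 on the MDSC arrays. Only the GFW and RB arrays overlapped to any extent, with GFW replicate 3 level with the highest GFE array. Of its 4 steps only the last, GFE to MDSC, was called (0.56, SE 0.14, adjusted p = 0.00454).

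Tapbp, which encodes tapasin, was 9.78, 9.75 and 9.91 log2 on the GFK arrays and 9.35, 9.67 and 9.63 on the GFW arrays. The RB arrays read 9.28, 9.24 and 9.32; the signal was 8.95, 9.07 and 8.93 on the GFE arrays and 8.55, 8.52 and 8.44 on the MDSC arrays. The 5 groups did not overlap on this probe set. The steps from RB to GFE (0.30, adjusted p = 0.0224) and from GFE to MDSC (0.48, adjusted p = 0.00172) were called, and that from GFK to GFW was not (0.26, adjusted p = 0.306). The step from GFW to RB (0.27, adjusted p = 0.039) was lost without RB replicate 1 or 2 or GFW replicate 2 or 3 (adjusted p up to 0.146), without the filter (0.0532), with only the 6 arrays compared (0.129), with each array centred on its median (0.143) and with the mean of its probe sets (0.891). That from GFE to MDSC was not called with the mean of its probe sets (0.18, adjusted p = 0.302), and its other set with a single symbol put MDSC 0.13 above GFE (adjusted p = 0.613). A further set, listing Tapbp with Zbtb22, read 8.22, 8.11 and 8.19 on the GFK arrays and 8.05, 8.09 and 8.09 on the GFW arrays. It read 7.77, 7.76 and 7.57 on the RB, 7.68, 7.5 and 7.57 on the GFE and 7.39, 7.36 and 7.31 on the MDSC arrays. Which of its symbols that set reads cannot be told.

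The inducible proteasome subunits did not move as a unit. Psmb9, the inducible counterpart of Psmb6 and the neighbour of Tap1, was 11.77, 11.79 and 11.93 log2 on the GFK arrays, 11.50, 11.68 and 11.67 on the GFW arrays and 11.47, 11.53 and 11.39 on the GFE arrays. The RB arrays read 10.86, 10.92 and 11.14 and the MDSC arrays 10.21, 10.13 and 10.06. Here the RB arrays lay below the GFW and GFE arrays, and the MDSC arrays below all. The steps from GFE to RB (0.49, SE 0.10, adjusted p = 0.000818) and from RB to MDSC (0.84, SE 0.10, adjusted p = 5.65e-06) were called, and those from GFK to GFW (0.22, adjusted p = 0.432) and from GFW to GFE (0.15, adjusted p = 0.206) were not.

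Psmb8, the inducible counterpart of Psmb5, overlapped in 4 groups. Its values were 9.38, 9.56 and 9.53 log2 on the GFE arrays, 9.39, 9.30 and 9.52 on the GFK arrays, 9.11, 9.30 and 9.42 on the GFW arrays and 9.20, 9.52 and 9.08 on the RB arrays. No step among neighbours was called (adjusted p = 0.565, 0.765 and 0.951). GFE minus GFW was 0.21 (adjusted p = 0.135), was called with each array centred on its median over all probe sets (0.35, adjusted p = 0.0314) and became -0.10 with centring on the genes tested (adjusted p = 0.452). The MDSC arrays, at 8.62, 8.62 and 8.54, lay below them, 0.67 under RB (SE 0.12, adjusted p = 0.000279).

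Psmb10, the inducible counterpart of Psmb7, lies on chromosome 8, apart from the other 2 subunits, and had an order of its own. Its signal was 10.50, 10.51 and 10.56 log2 on the RB arrays and 8.90, 9.07 and 9.0 on the GFW arrays, the lowest group. Between them lay the GFK arrays (9.75, 9.71 and 9.75), the MDSC arrays (9.94, 9.70 and 9.56) and the GFE arrays (9.74, 9.72 and 9.60), which overlapped. RB stood 0.78 above GFK (SE 0.11, adjusted p = 1.70e-05) and GFE 0.70 above GFW (adjusted p = 2.48e-05). GFK and MDSC differed by 0.01 (adjusted p = 0.966), in a pair of groups with 60.9% of genes called. Psmb10 was the only member that was called higher in MDSC than in GFW (0.75, SE 0.11, adjusted p = 1.46e-05), with all 3 MDSC arrays above all 3 GFW arrays.

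**Figure D2:**
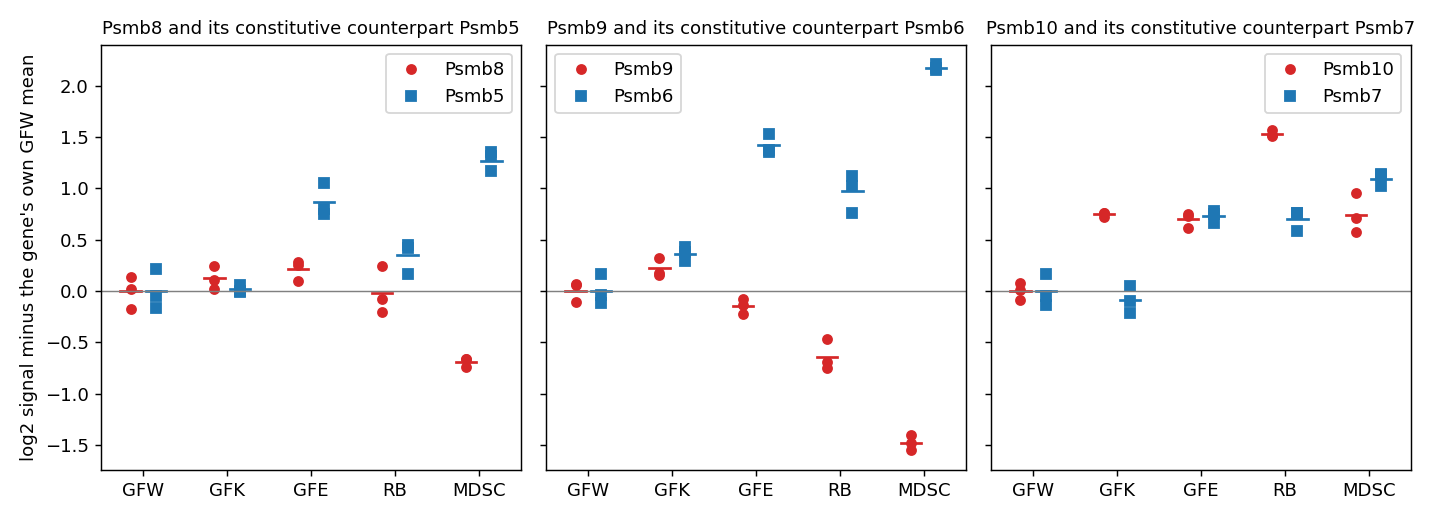
Each panel plots, for each array, the log2 signal of an inducible subunit (circles) and its constitutive counterpart (squares) minus that gene's own GFW mean, with a line at each group mean. On the MDSC arrays Psmb5 and Psmb6 stand 1.27 and 2.17 above their GFW means, while Psmb8 and Psmb9 stand 0.68 and 1.48 below theirs; Psmb10 and Psmb7 are both above.

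The constitutive catalytic subunits stood above GFW in the GFE, RB and MDSC groups. Psmb6 was 7.50, 7.58 and 7.79 log2 on the GFW arrays, 7.91, 8.0 and 8.05 on the GFK arrays and 8.64, 8.74 and 8.38 on the RB arrays. It was 8.97, 9.15 and 8.99 on the GFE arrays and 9.79, 9.83 and 9.77 on the MDSC arrays. The groups did not overlap, with GFW lowest and MDSC highest. Against GFW, Psmb6 was higher by 1.41 on GFE (adjusted p = 2.00e-08), 0.96 on RB (4.03e-06) and 2.17 on MDSC (1.93e-10). Psmb5 was higher by 0.87, 0.35 and 1.27 in the same comparisons and Psmb7 by 0.74, 0.71 and 1.10, all called. Psmb10 was called higher in these 3 comparisons as well, Psmb9 was called lower in RB and MDSC, and Psmb8 was called lower in MDSC. None of the 3 was called for GFK against GFW (0.01 for Psmb5, 0.36 for Psmb6 and -0.08 for Psmb7).

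Psme1 and Psme2 encode the alpha and beta subunits of PA28 and lie on chromosome 14. Psme1 was 10.05, 10.19 and 10.26 log2 on the GFW arrays, 10.25, 10.21 and 10.19 on the GFK arrays and 10.25, 10.33 and 10.25 on the RB arrays. It was 10.45, 10.47 and 10.44 on the GFE arrays and 9.79, 9.66 and 9.64 on the MDSC arrays. The MDSC arrays lay below all others, 0.47 under GFW (SE 0.09, adjusted p = 0.000378), and the GFE arrays above all others. The steps among GFE, RB, GFK and GFW were not called (adjusted p = 0.115, 0.614 and 0.892).

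Psme2 depended on the probe set. The set that lists it alone read 8.0, 8.46 and 8.61 log2 on the GFW arrays, 8.51, 8.38 and 8.15 on the GFK arrays and 8.08, 7.84 and 8.12 on the MDSC arrays. It read 7.91, 7.99 and 7.79 on the GFE arrays and 7.50, 7.87 and 7.58 on the RB arrays. Neighbouring groups overlapped apart from GFK and MDSC, and no step in the order was called (adjusted p = 0.986, 0.0746, 0.622 and 0.204). A further set that lists Psme2 with 9930111J21Rik1 and 9930111J21Rik2 read 9.33, 9.20 and 9.08 on the GFW arrays and 9.1, 9.18 and 8.93 on the GFK arrays. It read 8.42, 8.71 and 8.75 on the RB arrays, 8.08, 7.79 and 7.79 on the GFE arrays and 7.80, 7.31 and 7.63 on the MDSC arrays. On that set MDSC stood 1.05 below RB (adjusted p = 1.45e-05), where the set listing Psme2 alone gave 0.36 above (adjusted p = 0.0675). Which of its 3 symbols that set reads cannot be told apart.

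**Figure D3:**
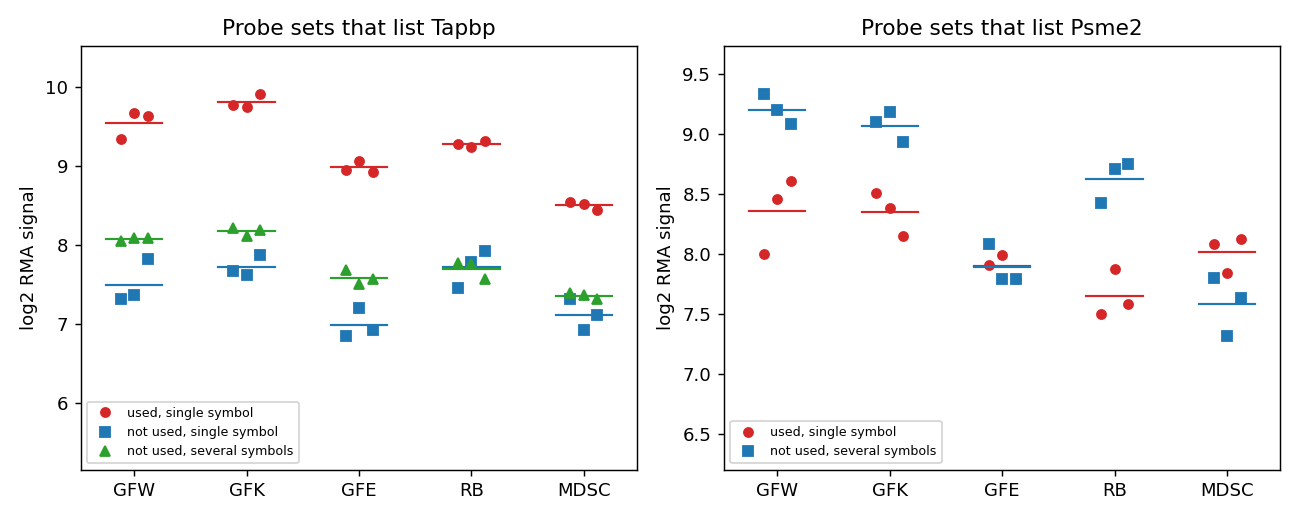
Log2 RMA signal on each array for the probe sets that list Tapbp (left) and Psme2 (right), with points for the 3 arrays of a group, lines at group means and the set used in circles. The 2 Psme2 sets differ most between RB and MDSC, where the used set gives MDSC 0.36 above RB and the set with several symbols 1.05 below; the other Tapbp set with a single symbol puts RB 0.23 above GFW, where the used set puts it 0.27 below.

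GFK, the group labelled iNOS knockout, was set against GFW to see how the label bears on these genes. Irf1, Nlrc5 and Psmb10 were higher on the GFK arrays, by 0.79 (SE 0.12, adjusted p = 0.00281), 1.08 (SE 0.15, adjusted p = 0.000907) and 0.75 log2 (SE 0.11, adjusted p = 0.00119). These are 3 of 10 members called higher by limma, against 1.3% of all genes tested, and 0 called lower, against 0.317%. At an unadjusted p under 0.05 the counts were 6 and 0. The share of all genes at that unadjusted threshold was not counted, so nothing is drawn from those counts. The median difference of the members was 0.28, that of all genes tested -0.01. For Tap1 (0.30), Tap2 (0.49), Tapbp (0.26) and Psmb9 (0.22) every GFK array also lay above every GFW array, without a call. The share of all genes whose arrays separate in this way was not counted, so nothing is drawn from it. The same 3 calls of Irf1, Nlrc5 and Psmb10 were made with each single array left out and in the other settings tried, with adjusted p-values of 0.000728 to 0.0267. Against RB, which carries the description of GFW, Irf1 was also higher on the GFK arrays (1.41, limma adjusted p = 1.54e-07). Nlrc5 and Psmb10 were lower there, by 0.50 (adjusted p = 0.0108) and 0.78 (adjusted p = 1.70e-05). The direction of Nlrc5 and Psmb10 thus depended on which sorted set GFK was compared with. In that comparison 6 members were called higher and 2 lower, with 50.5% of all genes called in either direction.

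Other genes of the pathway showed few calls between GFK and GFW. Of 12 tested genes of class I assembly and loading, 1 was higher, Tapbpl, a tapasin relative (0.55, adjusted p = 0.0456; not called with each array centred on its median over all probe sets or after further quantile normalisation), and B2m, the light chain, differed by 0.02. Of 11 interferon receptor and signalling genes, 1 was higher, Socs1, a feedback inhibitor of interferon signalling (0.77, adjusted p = 0.0459; not called with centring on the genes tested). Of 12 constitutive 20S proteasome genes, 7 other activators and assembly factors, 7 interferon regulatory factors and 8 promoter cofactors none was called by limma, and at an unadjusted p under 0.05 the counts in either direction were 2, 0, 2 and 1. Genes of other cell types differed beside these. Higher on the GFK arrays were 4 of 9 macrophage genes (Cd5l by 1.66, Marco 1.45, C1qb 0.84 and Hmox1 0.54), 2 of 7 B cell genes (Cd79a by 1.58 and Ighm 1.30) and 2 of 8 monocyte genes (Ace by 0.88 and Treml4 0.74). Of the other monocyte genes Ccr2 stood 0.69 lower without a call (adjusted p = 0.0603), and 1 monocyte gene was called lower after further quantile normalisation. Of 8 progenitor genes 1 was higher, Hlf (0.50, adjusted p = 0.0431). The summed macrophage signal ran from 12.53 to 12.84 log2 on the GFK and from 12.15 to 12.25 on the GFW arrays, and that of B cell genes from 13.18 to 13.22 and from 11.94 to 12.17. Most of the B cell sum was Ighm, at 13.02 on the GFK and 11.72 on the GFW arrays as means. The median difference of the B cell genes was 0.20. None of 7 T and NK cell genes and none of 9 neutrophil genes was called by limma, nor had any an unadjusted p under 0.05. The part of other cells in the higher Irf1, Nlrc5 and Psmb10 was not tested. Ifng itself did not pass the filter, at 4.94 to 5.34 log2 as group means.

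**Figure D4:**
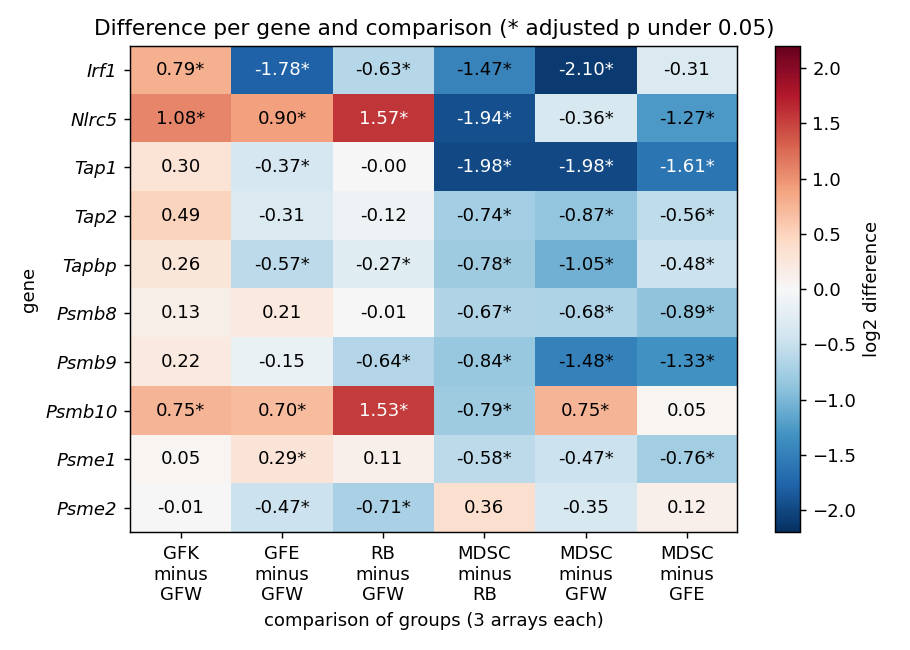
Log2 difference of each member (rows) in each of the 6 comparisons (columns), coloured by its size and sign, with an asterisk where the limma adjusted p was under 0.05. The 3 MDSC columns are lower for nearly all members, Nlrc5 and Psmb10 are higher in the 3 columns on the left, and Irf1 is higher in the first and lower in the next 4.

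Culture of the mobilised cells for 3 days with Flt3 ligand and SCF was compared with the GFW arrays, whose cells were taken as sorted. Irf1 fell by 1.78 log2 (SE 0.12, adjusted p = 3.18e-09), a 3.45-fold difference, Tapbp by 0.57 (adjusted p = 0.000166), Psme2 by 0.47 (adjusted p = 0.0157) and Tap1 by 0.37 (adjusted p = 0.0121). Nlrc5 was higher than on the GFW arrays by 0.90 (SE 0.15, adjusted p = 5.54e-05) and Psmb10 by 0.70 (adjusted p = 2.48e-05). Psme1 rose by 0.29 (adjusted p = 0.0114), which became -0.02 with each array centred on its median over the genes tested. Thus 3 of 10 members were called higher, against 35.1% of all genes, and 4 lower, against 31.9%, shares near the background, with a median of -0.23 beside -0.06 for all genes. The Tap1 call was lost without GFE replicate 3 (adjusted p = 0.059), that of Psme1 without GFW replicate 1 (0.0552), and that of Psme2 without GFE replicate 3 (0.0556) or GFW replicate 2 (0.0557) or 3 (0.0833). The probe set that lists Psme2 with further symbols read 8.08, 7.79 and 7.79 on the GFE arrays against 9.33, 9.2 and 9.08 on the GFW arrays. Centring each array on its median over all probe sets ended the calls of Tap1 (-0.24, adjusted p = 0.108) and Psme2 (-0.33, adjusted p = 0.0819), with 4 members called higher and 2 lower. Centring on the genes tested gave 2 higher and 6 lower, with Tap2 (-0.63, adjusted p = 0.000739) and Psmb9 (-0.47, adjusted p = 0.00105) called in addition. Tap2 was also called after further quantile normalisation (-0.52, adjusted p = 0.0027), which gave 5 lower, and without GFW replicate 3 (-0.45, adjusted p = 0.0117). Against RB, sorted cells with the description of GFW, Irf1 was again lower on the GFE arrays, by 1.16 (limma adjusted p = 7.17e-07). Nlrc5 and Psmb10 were lower there too, by 0.67 (adjusted p = 0.00107) and 0.83 (adjusted p = 5.19e-06). The direction of Nlrc5 and Psmb10 thus depended on the sorted set used.

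Around these members the constitutive machinery was higher in culture than on the GFW arrays. Of 12 constitutive 20S genes 11 were higher and 0 lower (median 0.75; 12 and 0 at an unadjusted p under 0.05), led by Psmb6 (1.41), Psmb2 (1.10) and Psma1 (1.07). Of 7 other activators and assembly factors 6 were higher (median 1.18), among them the chaperones Psmg1 (2.73) and Psmg2 (2.43). With centring on the genes tested 4 of the 7 were higher (median 0.87), as after further quantile normalisation (median 0.99). Of 12 genes of class I assembly 9 were higher and 1 lower (median 0.75), and 7 and 3 with centring on the genes tested (median 0.43). The chaperones Canx (1.88) and Calr (1.13), the peptide trimmer Erap1 (1.47) and the class I heavy chain H2-K1 (0.83) were higher and H2-T23 lower by 0.91. B2m differed by -0.05 and was not called. Of 11 interferon receptor and signalling genes 2 were higher and 6 lower (median -0.54), with Socs3 lower by 4.50, the interferon-gamma receptor chains Ifngr1 by 2.34 and Ifngr2 by 0.96, and the kinase Jak1 by 0.87. Of 7 interferon regulatory factors 1 was higher and 5 lower (median -0.91), with Irf8 lower by 1.90, Irf7 by 1.37 and Irf2 by 1.06. Of 8 cofactors 3 were higher, among them Rfx5 (0.91), which works with Nlrc5 at class I promoters, and 2 lower, with Ciita, the class II co-activator, lower by 1.47; with centring on the genes tested 1 cofactor was higher and 4 lower (median -0.28). All 9 neutrophil genes were lower in culture (median -6.34). Of 9 macrophage genes 8 were lower and 1 higher, and of 8 progenitor genes 5 were higher and 2 lower. The summed neutrophil signal was 9.45 to 9.53 log2 on the GFE and 15.39 to 15.44 on the GFW arrays. Fewer neutrophils and less of their RNA per cell cannot be told apart here. The part of other cells in the member differences was not tested.

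The RB and GFW arrays were compared because they share a description. Nlrc5 was higher on the RB arrays by 1.57 log2 (SE 0.15, adjusted p = 3.21e-07), a 2.98-fold difference, and Psmb10 by 1.53 (SE 0.11, adjusted p = 1.01e-08), a 2.89-fold difference. Psme2 was lower by 0.71 (adjusted p = 0.00139), Psmb9 by 0.64 (adjusted p = 0.000104), Irf1 by 0.63 (adjusted p = 0.00056) and Tapbp by 0.27. Of the 10 members 2 were called higher, against 25.8% of all genes, and 4 lower, against 26.5%, with a median of -0.07 beside -0.06 for all genes. These shares lie around the background, and the 4 include Tapbp, whose call was lost in the settings given above and whose other probe set put RB 0.23 above GFW (adjusted p = 0.253). Of the monocyte genes 7 of 8 were higher on the RB arrays (median 3.83, summed signal 14.64 to 14.72 against 12.58 to 12.71 log2) and of the neutrophil genes 1 of 9 was higher and 7 lower (summed signal 13.22 to 13.39 against 15.39 to 15.44). The part of these cells in the member differences was not tested. Of 12 constitutive 20S genes 6 were higher and 2 lower (median 0.30), of 7 other activators and assembly factors 5 and 0 (median 0.55; 5 and 0 at an unadjusted p under 0.05), and of 12 class I assembly genes 6 and 1 (median 0.34). Of 11 interferon receptor and signalling genes 2 were higher and 7 lower (median -0.47), of 7 interferon regulatory factors 2 and 1, and of 8 cofactors 1 and 0 by limma (1 and 0 at an unadjusted p under 0.05). For the cofactors this turned to 0 higher and 3 lower after further quantile normalisation and to 0 and 2 with centring on the genes tested, which also gave 3 and 1 for the other activators and assembly factors. Among the signalling kinases Tyk2 was higher by 1.66 and Jak2 lower by 1.16, and among the interferon regulatory factors Irf8 was higher by 1.71, Irf4 by 1.47 and Irf3 lower by 0.57.

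The cultured MDSC were compared with RB and GFW, the sorted cells of the same strain label, and with the other cultured group, GFE. The 3 comparisons share the MDSC arrays, as those above share the GFW arrays, so they are not independent. Against RB, Tap1 was lower by 1.98 log2 (SE 0.12, adjusted p = 1.41e-09), Nlrc5 by 1.94 (SE 0.15, adjusted p = 2.08e-08) and Irf1 by 1.47 (SE 0.12, adjusted p = 6.10e-08), which are 3.93-fold, 3.83-fold and 2.78-fold differences. Psmb9 was lower by 0.84, Psmb10 by 0.79, Tapbp by 0.78, Tap2 by 0.74, Psmb8 by 0.67 and Psme1 by 0.58, all called. In all, 9 of 10 members were called lower, against 20.7% of all genes, and 0 higher by limma, against 27.4%, where 1 member, Psme2, had an unadjusted p under 0.05. The median of the members was -0.78, that of all genes 0.04. The 9 calls were made in every setting tried, single arrays left out included.

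Against GFW the members lower in MDSC included Irf1 by 2.10 log2 (SE 0.12, adjusted p = 6.79e-10), Tap1 by 1.98, Psmb9 by 1.48 (adjusted p = 5.39e-09) and Tapbp by 1.05 (adjusted p = 2.75e-07). Tap2 was lower by 0.87, Psmb8 by 0.68, Psme1 by 0.47 and Nlrc5 by 0.36, the last with overlapping arrays, and Psmb10 was higher by 0.75. This makes 8 of 10 members called lower, against 30% of all genes, and 1 higher, against 32.3%, with a median of -0.78 beside -0.08. Psme2 was not called (-0.35, limma adjusted p = 0.0637). It was called lower after further quantile normalisation (-0.58, adjusted p = 0.00547) and without GFW replicate 1 (-0.52, adjusted p = 0.00687). The same held with centring on the genes tested (-0.61, adjusted p = 0.00225) and on the set listing further symbols (-1.63, adjusted p = 6.66e-08). The members called lower numbered 7 with only the 6 arrays compared and 9 after further quantile normalisation. Against GFE, Tap1 was lower by 1.61, Psmb9 by 1.33 (adjusted p = 4.32e-08), Nlrc5 by 1.27 (adjusted p = 3.94e-06), Psmb8 by 0.89, Psme1 by 0.76, Tap2 by 0.56 and Tapbp by 0.48. Here 7 of 10 members were called lower, against 18.9% of all genes, and 0 higher by limma, against 16.6%, with 0 higher at an unadjusted p under 0.05 as well, and the median was -0.66 beside -0.00. Irf1, Psmb10 and Psme2 were not called. With its other probe set the difference of Tapbp between MDSC and GFW missed the threshold (-0.38, adjusted p = 0.0504). Between MDSC and GFE that set gave 0.13 (adjusted p = 0.613). With the mean of its probe sets Tapbp was not called there (-0.18, adjusted p = 0.302), which left 6 members called lower. Genes of other cell types differed beside these. Against GFW 7 of 7 B cell genes were lower in MDSC (median -0.83), 7 of 9 macrophage genes were lower and 0 higher by limma (1 higher at an unadjusted p under 0.05), and 6 of 9 neutrophil genes were lower and 2 higher (median -2.17). Against GFE 8 of 9 neutrophil genes were higher (median 4.18) and 6 of 8 monocyte genes higher and 1 lower (median 0.69), while 6 of 8 progenitor genes were lower and 2 higher (median -2.66). The summed neutrophil signal was 14.19 to 14.27 log2 on the MDSC arrays, beside 15.39 to 15.44 on the GFW and 9.45 to 9.53 on the GFE arrays. The part of these cells in the member differences was not tested.

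Most constitutive proteasome genes were higher in MDSC than in the sorted cells. Of 12 constitutive 20S genes 10 were higher than in RB and 1 lower (median 0.59), 11 were higher and 0 lower than in GFW (median 0.74; 11 and 0 at an unadjusted p under 0.05), and 4 were higher and 1 lower than in GFE. Psmb6 was higher than in RB by 1.21, Psma1 by 1.06 and Psma6 by 1.01. Psme3, which encodes the nuclear proteasome cap PA28 gamma, was 1.40 higher than in RB and 1.15 higher than in GFW. The class I assembly genes split, 5 higher and 6 lower than in RB (3 and 6 with centring on the genes tested): the chaperones Calr (0.82), Canx (0.43) and Pdia3 (0.38) were higher, and H2-T23 (1.21), H2-M3 (0.83), Tapbpl (0.63), H2-K1 (0.57) and B2m (0.35) were each lower by the size given in log2. Against GFW 7 of these 12 were higher and 4 lower (5 and 5 with each array centred on its median over the genes tested), and against GFE 0 were higher by limma (also 0 at an unadjusted p under 0.05) and 5 lower, among them H2-K1 by 1.30.

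Of 11 interferon receptor and signalling genes 8 were lower and 1 higher in MDSC than in RB (median -0.52), and 8 were lower and 3 higher than in GFW (median -0.93). Against GFE 5 were lower and 2 higher, with a median of -0.03. Ifngr1 was lower than in RB by 1.62 (adjusted p = 1.35e-09) and Stat2, which carries the type I interferon signal, by 1.42 (adjusted p = 5.17e-07), whereas Socs1 was higher by 1.98 (adjusted p = 1.97e-07). Of 7 interferon regulatory factors 1 was higher and 4 lower than in RB (median -1.16), 2 higher and 5 lower than in GFW, and 2 higher and 4 lower than in GFE. Irf7, an amplifier of type I interferon, was lower than in RB by 3.44 and than in GFE by 1.97, Irf9, the partner of Stat2, by 2.52 and 1.85, and Irf8 was lower than in RB by 2.10 but higher than in GFE by 1.51. Of 8 cofactors 3 were higher and 2 lower than in RB, with Nfyb higher by 1.04 and Ciita lower by 0.66; with centring on the genes tested 1 was higher and 3 lower. Monocyte genes were lower in MDSC than in RB for 6 of 8 and macrophage genes for 7 of 9, while 6 of 8 progenitor genes were higher, led by the granule genes Elane (4.11) and Mpo (4.08) and by Kit (3.44), and Meis1 was lower by 0.48. The summed monocyte signal was 13.06 to 13.16 log2 on the MDSC and 14.64 to 14.72 on the RB arrays, and the summed progenitor signal 12.53 to 12.65 and 9.25 to 9.63. Their part in the differences of the members was not tested.

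For each member the genes of most similar pattern were found by Pearson's r over the 15 arrays, which fall into 5 groups, so that r mainly describes the group means and carries no test. Tgm2, a transglutaminase, came closest to Irf1 (r = 0.984), with Ly6i (0.981) and Ptafr, the receptor of platelet-activating factor (0.978), next. Tgm2 stood at 10.01 ± 0.17 log2 (SD, n = 3) on the GFK, 8.80 ± 0.12 on the GFW, 8.58 ± 0.18 on the RB, 7.33 ± 0.19 on the GFE and 6.88 ± 0.03 on the MDSC arrays, the order of Irf1. Parp9 was closest to Tap1 (0.986), Clec2d to Psmb9 (0.990) and Casp1, the inflammatory caspase, to Tapbp (0.978). Psmb8 and Psme1 each had a class I heavy chain gene in the second place, H2-Q4 (0.926) and H2-Q5 (0.957), after Cdk17 (0.932) and Serinc3 (0.969). H2-Q5 stood at 4.86 ± 0.08 on the MDSC arrays, below the filter values of 5.34 to 5.58 log2, and 8.62 ± 0.12 on the GFE arrays. Nlrc5 was matched less closely, by Ndufaf7 (0.914), Ube2l6, an enzyme of ISG15 conjugation (0.906), and Crebbp, a histone acetyltransferase (0.899). The closest genes to Psmb10, Tap2 and Psme2 were Tgif1 (0.932), Susd6 (0.930) and Neurl1a (0.902). Neurl1a lay near the filter values, with group means from 5.52 on the RB to 5.98 on the GFK arrays.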

How the data were processed

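Total RNA was labelled with biotin and hybridised to 15 arrays, 1 per sample. The deposited values are log2 signals made by the authors with RMA in the oligo package, per the submitters' processing notes. The sources used here give neither their versions nor the genome build. Of 41345 probe sets, 23521 listed 1 gene symbol (1814 listed several and 16010 none); they covered 22180 genes, and the set with the highest mean over the 15 arrays was taken for the 1082 genes with several. Genes above the 40th percentile of their array on at least 3 arrays were tested (14822). The fit used limma 3.58.1 (R 4.3.3) on all arrays with group means as coefficients; the residual degrees of freedom were 10 and the prior ones 5.33. P-values were adjusted by Benjamini-Hochberg over all genes tested, 2-sided, and SE is limma's. The fit was tested on simulated data.

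The members, gene lists and comparisons were chosen with earlier results of these data known. Named in the text are the members, Psmb5, Psmb6 and Psmb7, the called list genes with the largest differences and further list genes with their values, and the genes most like a member (predicted gene models left out). A further promoter motif is not reported here. A summed signal is the log2 of a list's summed linear signals. Alternatives were fewer arrays, 3 further scalings, no filter, other probe set choices, the replicate number as a block and each array left out, of which centring on the tested genes and the other probe sets were added after the data were seen. The replicate numbers did not pair the samples (r of deviations between same-numbered arrays -0.13 to 0.10). The number of arrays limits the precision.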

Additional observations from a re-analysis of the deposited data

How the results depend on the processing

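Of the 41 called differences of members, 35 kept their direction and their call with fewer arrays, the 2 scalings, no filter, averaged probe sets, the block and single arrays left out, and 6 did not; of the 19 not called, 9 kept both. With each array minus its median over all probe sets, 2 members in place of 4 were called lower for GFE minus GFW (2 to 4 with single arrays left out, the lowest without GFE replicate 3) and 1 in place of 0 higher for MDSC minus RB (0 to 1 with single arrays left out). That scaling turned Tap1 (0.06) and Psmb8 (0.05) in RB minus GFW and Psme2 (0.00) in GFK minus GFW. Further quantile normalisation turned Psmb10 in MDSC minus GFE (-0.01). With single arrays left out, differences near 0 ran across it: Tap1 (-0.10 to 0.12) and Psmb8 (-0.14 to 0.08) in RB minus GFW, Psmb10 in MDSC minus GFE (-0.06 to 0.13), and Psme1 (-0.00 to 0.10) and Psme2 (-0.19 to 0.11) in GFK minus GFW. The other probe sets turned Tapbp in RB minus GFW (0.23) and MDSC minus GFE (0.13) and Psme2 in MDSC minus RB (-1.05) and MDSC minus GFE (-0.31). Centring on the genes tested turned Psmb8 (-0.10) and Psme1 (-0.02) in GFE minus GFW and Psme1 in RB minus GFW (-0.03). The causes were not tested. That centring moved the median of all genes in GFE minus GFW from -0.06 to -0.38 and the split of higher against lower calls from 5198 and 4733 to 3891 and 7694, and centring on all probe sets to 0.07 with 5783 and 3286. It moved the median in MDSC minus GFW from -0.08 to -0.34 and in RB minus GFW from -0.06 to -0.2. The same splits were 4781 and 4444, 3729 and 7401, and 5306 and 3094 for MDSC minus GFW, and 3831 and 3929, 3099 and 5635, and 4112 and 3201 for RB minus GFW; for MDSC minus RB they were 4057 and 3073, 3304 and 3999, and 4478 and 2613. With only the 6 arrays compared, GFK minus GFW had 72 genes higher and 2 lower in place of 192 and 47; without single arrays it had 102 to 150 higher and 27 to 42 lower, and without the filter 149 and 30. The replicate numbers did not pair the samples; with the replicate block Tapbp in RB minus GFW lost its call (-0.27, adjusted p = 0.0514), and 160 and 42 genes were called for GFK minus GFW. With 3 arrays a group, small differences missed the threshold, and a value not called is not shown to be equal.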
